A study of Homo sapiens with 6 samples.

Results

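AXL, KIT and 8 further receptor tyrosine kinase genes (TYRO3, MERTK, EGFR, ERBB2, ERBB3, INSR, IGF1R and FGFR1) were followed in K562 cells with and without the label ACK KO. The genes were chosen by name with the KO and WT values of these libraries known, so their differences between the genotypes are given here as a description and carry no test. Of these 10 genes, 9 have a row in the table of 19498 genes, and all 9 passed the filter on low values, which 16658 genes passed. EGFR has no row and was not analysed here. K562 is an established chronic myeloid leukaemia line, driven by the fusion kinase BCR::ABL1. Polyadenylated RNA was sequenced from 3 libraries labelled WT and 3 labelled ACK KO (the KO-labelled libraries). Both groups were grown in RPMI-based medium with fetal bovine serum and glutamine and had no drug or other agent in the labels; the cells were harvested beside a chromatin profiling (CUT&RUN) experiment. The study concerns the STAT5 transcription programme and ACK, the product of TNK2, a cytoplasmic tyrosine kinase and effector of Cdc42. Both genotypes are named as 1 cell line, and the sources used here do not say how the knockout was made or in how many clones. Genotype and clone therefore cannot be told apart, and the spread between replicates, called biological in the labels, may be that between cultures of 1 clone.

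Receptor tyrosine kinases are single-pass membrane proteins. Binding of a ligand outside the cell brings receptors together, the kinase domains inside the cell phosphorylate each other, and adaptor proteins that dock on the phosphotyrosines pass the signal to RAS, PI3-kinase and STAT proteins. AXL, TYRO3 and MERTK form the TAM family, which binds GAS6 and PROS1 and acts in the clearance of dying cells. KIT is the receptor for stem cell factor (KITLG) and is characteristic of blood progenitors and mast cells. ERBB2 and ERBB3 belong to the EGF receptor family, INSR and IGF1R are the receptors for insulin and insulin-like growth factors, and FGFR1 binds fibroblast growth factors. In chronic myeloid leukaemia cells much of the signalling downstream of such receptors is driven by BCR::ABL1, and ACK is known to bind activated AXL and EGFR.

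The start regions of AXL and KIT are shown because these were the genes with the largest differences in the 2 directions. Both come from RefSeq promoter windows of GRCh38.p14, which run from 250 bases before to 50 after a start site, and are printed up to the base before the gene's first annotated base in GENCODE 29. The AXL stretch is chr19:41218973-41219202 and the KIT stretch is chr4:54657707-54657917, both on the plus strand. Capitals mark GGGCGG, the core of the motif bound by SP1.
AXL: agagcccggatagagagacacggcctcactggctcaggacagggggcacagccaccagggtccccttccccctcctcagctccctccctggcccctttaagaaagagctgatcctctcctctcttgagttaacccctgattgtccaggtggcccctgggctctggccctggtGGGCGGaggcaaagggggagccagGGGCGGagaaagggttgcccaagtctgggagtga
KIT: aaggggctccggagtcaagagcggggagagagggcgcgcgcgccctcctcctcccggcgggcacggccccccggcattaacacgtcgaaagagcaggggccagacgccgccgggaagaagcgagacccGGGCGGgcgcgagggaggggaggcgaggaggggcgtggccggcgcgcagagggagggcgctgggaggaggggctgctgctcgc
The AXL window held 2 matches to GGGCGG, beginning 78 and 54 bases before the start site, and the KIT window held 1, beginning 122 bases before it. Across all 35116 RefSeq windows of the same length, 45.0% held that motif. The AXL window had 7 CpG dinucleotides and a GC content of 66.0%. The KIT window had 38 CpG dinucleotides and a GC content of 74.3%, against medians of 14 and 58.7% over all windows. On either strand, neither window held the GATA motif AGATAA, which 10.3% of all windows held, or its variant TGATAA, in 7.53%. The STAT motif TTCNNNGAA, in 7.66% of all windows, the TEAD motif GGAATG, in 14%, and the AP-1 motif TGANTCA, in 7.71%, were also not among the letters of either. A second RefSeq start of AXL, with its window at chr19:41226505-41226804, held 1 match to GGAATG. Such matches describe these windows alone. RefSeq windows were found for 8 of the 10 genes, MERTK, KIT, EGFR, TYRO3, IGF1R, ERBB2, INSR and AXL.

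Values are the authors' normalised counts, with sums per library between 43.5 M and 53.3 M. Differences are given as log2(value + 1), KO-labelled minus WT, with the standard error of the limma fit. Over all 16658 genes tested the median difference was -0.02. By limma with Benjamini-Hochberg adjustment, 894 genes (5.37%) rose and 827 (4.96%) fell at an adjusted p under 0.05. With the replicate number as a block these shares were 19.7% and 20%. The share of all genes with an unadjusted p under 0.05 is not given here, so nothing is read from counts at that threshold. TNK2, the targeted gene, read 829.7, 613 and 642 in WT and 741, 506 and 598 in the KO-labelled libraries, a log2 difference of -0.18 ± 0.21 (SE; exact two-sided permutation p = 0.4, and 3 against 3 cannot go below 0.1). The level of TNK2 mRNA thus gives no check on the labels. All 11 markers of K562 looked for were in the table, and their summed value was 73935 to 104360 in WT and 82743 to 103088 in the KO-labelled libraries. Within that list HBE1, embryonic globin, rose from a mean of 1315 to 12385 (limma adjusted p = 7.84e-04), and TFRC, the transferrin receptor and a large part of the sum, had means of 38866 and 25954 (limma adjusted p = 0.447, and 0.0121 with the block). In bulk RNA, fewer cells of a type and less RNA per cell cannot be told apart.

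AXL, the TAM receptor that in many cancers marks a migratory state, was about 4.9-fold higher in the KO-labelled libraries. Its normalised count was 214, 177 and 196 in WT replicates 1, 2 and 3 and 1084, 865 and 928 in the same replicates of the knockout label. All 3 values of the knockout label lay above all 3 of WT, and the lowest of the first group was far above the highest of the second. The group means were 195 ± 18.9 and 959 ± 113 (SD, n = 3), and the fitted log2 difference was 2.29 ± 0.18 (SE), a 4.88-fold difference. Within replicate numbers 1, 2 and 3 the difference was 2.33, 2.29 and 2.24, so AXL varied less between the pairs than KIT or FGFR1 did. AXL (ENSG00000167601.12) lies on the plus strand of chromosome 19 from 41219203 to 41261766 in GRCh38.

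TYRO3, the TAM receptor best known from the nervous system, read 1527, 1340.4 and 1326 in WT and 1738, 1503 and 1585 in the KO-labelled libraries. The groups overlapped, since WT replicate 1 read higher than knockout replicate 2. The means were 1398 ± 112 and 1608 ± 119 (SD, n = 3) and the log2 difference was 0.20 ± 0.13 (SE). MERTK, the TAM receptor of macrophages, read 187, 66.3 and 101 in WT and 289.7, 129.7 and 130.1 under the knockout label. Replicate 1 was the highest of its group for MERTK in both genotypes, the groups overlapped, and the log2 difference was 0.65 ± 0.49 (SE; 0.20 with the replicate number as a block). MERTK transcript is characteristic of macrophages, and of 6 macrophage and dendritic markers 2 were in the table, CD14 at or below 13.3 and LYZ, which makes up most of the summed value of 419 to 537 in WT and 442 to 609 under the knockout label. Their part in the MERTK values was not tested.

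To set the 3 TAM genes beside one another, values were divided by the length of the merged exons of each gene. Among the summed TAM signal per kilobase, AXL made up 19.96 ± 1.096% in WT and 50.1 ± 1.16% in the KO-labelled libraries (SD, n = 3). The share of TYRO3 was 67.3 ± 4.28% in WT and 39.7 ± 2.49% under the knockout label. MERTK held 12.7 ± 4.94% and 10.2 ± 3.61%. TYRO3 was thus the leading TAM transcript per kilobase in every WT library and AXL in every knockout-labelled one, and the AXL share was 18.7% and 48.4% when the length of the median coding transcript was used.

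**Figure D1:**
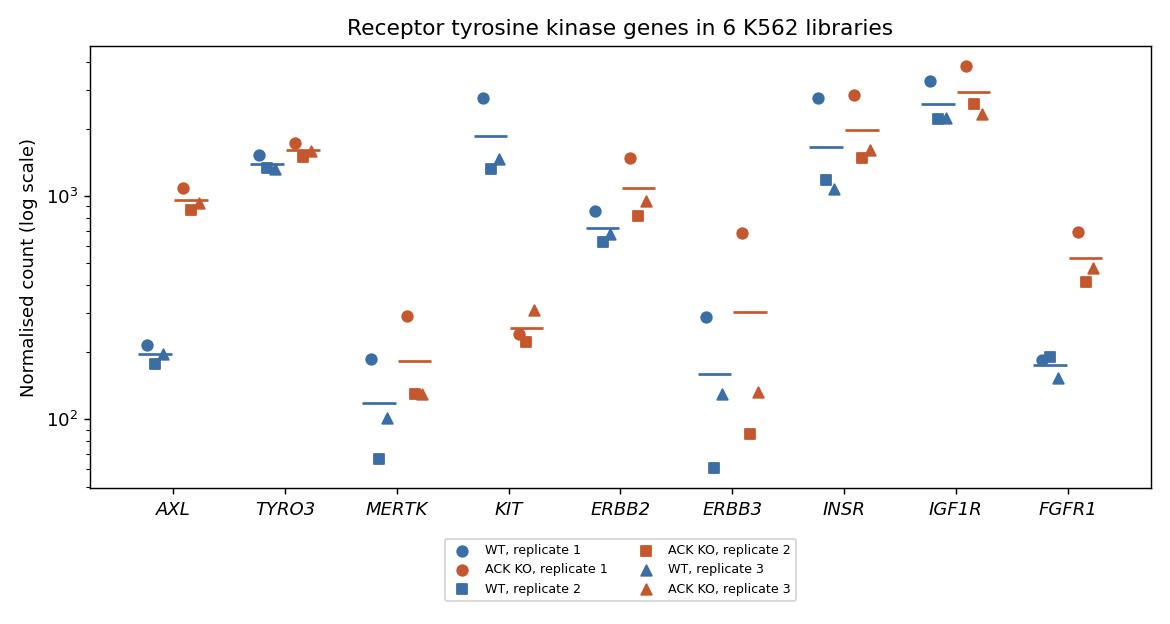
Normalised count (log axis) of the 9 receptor genes in the table, with WT libraries in blue, ACK KO libraries in orange, marker shapes for replicate numbers and horizontal lines for the group means. AXL and FGFR1 have all 3 knockout-labelled values above WT, KIT has all 3 below, and the groups of the other 6 genes overlap.

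KIT, the stem cell factor receptor, was the member with the lowest values under the knockout label relative to WT. It read 2758, 1321 and 1472 in WT and 241, 222 and 309.5 in the KO-labelled libraries. The groups did not overlap, and WT replicate 1 stood above the other two WT libraries. Means were 1850.3 ± 789.7 and 257 ± 46.2 (SD, n = 3), a log2 difference of -2.78 ± 0.31 (SE), or 6.85-fold lower. The 3 pairs gave -3.51, -2.57 and -2.25. Without WT replicate 1 the difference was -2.45, and without both replicate 1 libraries it was -2.41. KIT (ENSG00000157404.15) is on the plus strand of chromosome 4, from 54657918 to 54740715. Of 6 melanocyte and mast cell markers, cells in which KIT is also abundant, 2 were in the table, and their summed value was 296 to 528 in WT and 54.5 to 214 in the KO-labelled libraries. The larger part of it was MS4A2, a chain of the IgE receptor, at 489, 334 and 281 in WT and 177, 54.7 and 29.6 under the knockout label (limma adjusted p = 0.0582, and 0.00128 with the replicate number as a block). PMEL, the other marker with a row, had means of 23.2 in WT and 24.8 under the knockout label (log2 difference 0.10, limma adjusted p = 0.94). TPSAB1 and CPA3, defining mast cell genes, have no row. The part of these markers in the KIT values was not tested.

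FGFR1, a receptor for fibroblast growth factors, was the remaining gene whose groups did not overlap. It read 184, 190.3 and 153 in WT and 691, 414 and 476 in the KO-labelled libraries. The means of 176 ± 20.2 and 527 ± 145 (SD, n = 3) differed by 1.55 ± 0.25 on the log2 scale (SE), or 2.93-fold. Knockout replicate 1 was the highest library, and the 3 pairs gave 1.90, 1.12 and 1.63. FGFR1 (ENSG00000077782.20) lies on the minus strand of chromosome 8, and LETM2 overlaps it on the other strand. The sources used here do not state whether reads were counted by strand, and LETM2 itself had means of 114 in WT and 157 under the knockout label.

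ERBB2, which has no known ligand of its own and pairs with the other EGF receptor family members, read 857, 622 and 678 in WT and 1482, 817 and 949.9 in the KO-labelled libraries. WT replicate 1 lay above knockout replicate 2, so the groups overlapped. The log2 difference was 0.56 ± 0.26 (SE), with means of 719 ± 123 and 1083 ± 352 (SD, n = 3). PGAP3 and MIEN1 overlap ERBB2 on the other strand in the annotation. PGAP3 had means of 358 in WT and 545 under the knockout label, and MIEN1 of 1140 and 1167. Their part in the ERBB2 values was not tested. ERBB3, a receptor with a weakly active kinase that signals through its partners, read 288, 60.4 and 129.9 in WT and 686, 86.2 and 133 under the knockout label. In both genotypes a single library, replicate 1, held the highest ERBB3 value by a wide margin. The log2 difference of ERBB3 was 0.60 with an SE of 0.87, or of 0.25 with the block, and it was 1.16 without WT replicate 1, -0.29 without knockout replicate 1 and 0.27 without both.

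INSR, the insulin receptor, read 2749.97, 1180.02 and 1072 in WT and 2849.9, 1475 and 1617 in the KO-labelled libraries. Its replicate 1 values were again the highest and nearly the same in both genotypes. The log2 difference was 0.32 ± 0.42 (SE; 0.11 with the block), and 0.05, 0.32 and 0.59 in the 3 pairs. IGF1R, the type 1 insulin-like growth factor receptor, read 3263, 2216 and 2244 in WT and 3824, 2583 and 2339.9 under the knockout label. The groups overlapped, and the difference of 0.17 ± 0.24 (SE; 0.07 with the block) became -0.04 without knockout replicate 1.

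Across the 9 genes, 2 had no overlap with the knockout label higher and 1 with it lower, where 15.2% and 14.7% of all genes tested had none in the same directions. The difference was at least 2-fold in 3 of the 9, where 14.8% of all genes tested reached that size. In 8 of 9 the difference was above 0, in every pair, and 48.4% of all genes tested had a fitted difference above 0. The genes were listed with this comparison known, so nothing is read from these counts. The nearest differences on either side of 2-fold were 1.55 for FGFR1 and 0.65 for MERTK.

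**Figure D2:**
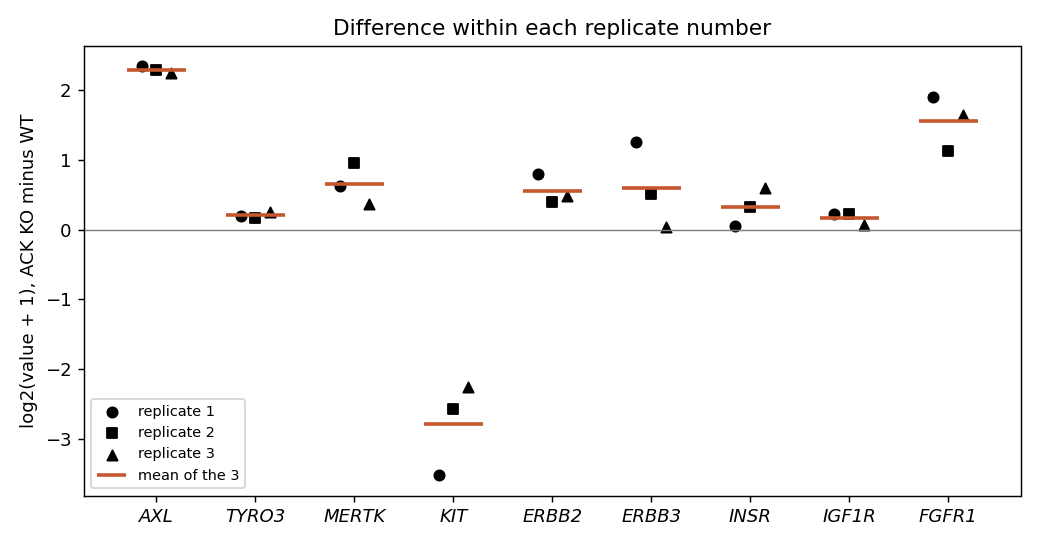
Difference in log2(value + 1) within each replicate number (black markers) and its mean (orange line) for the 9 genes. The 3 AXL points lie between 2.24 and 2.33, the KIT points between -3.51 and -2.25, and the ERBB3 points spread from 0.04 to 1.25.

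A second source of variation was shared by most of these genes. Replicate 1 was the highest of the 3 libraries in both genotypes for 7 of 9 genes, where 34.4% of all genes tested had that pattern. The ratio of replicate 1 to the mean of replicates 2 and 3 was 3.03 in WT and 6.25 in the KO-labelled libraries for ERBB3, 2.24 and 2.23 for MERTK, and 2.44 and 1.84 for INSR. These 3 genes differed more between replicate numbers than between genotypes. For AXL the ratio was 1.15 and 1.21. For KIT it was 1.97 in WT and 0.906 under the knockout label, the opposite side of 1. What set replicate 1 apart was not tested.

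**Figure D3:**
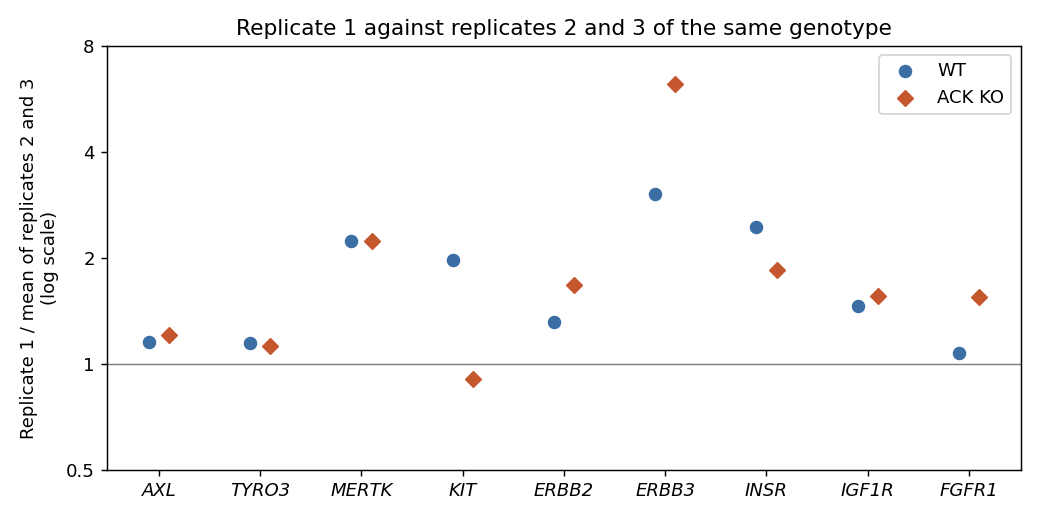
Ratio of the replicate 1 value to the mean of replicates 2 and 3 (log axis) in WT (blue circles) and ACK KO (orange diamonds) for the 9 genes. ERBB3 has the highest ratios, 3.03 and 6.25, and AXL and TYRO3 lie between 1.13 and 1.21.

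The order of the receptor transcripts per kilobase of merged exons differed between the genotypes. In WT, KIT was first at 333 normalised counts per kilobase, followed by IGF1R at 185, INSR at 159.5, TYRO3 at 128, ERBB2 at 69.7, AXL at 37.9, MERTK at 25.2, ERBB3 at 17.6 and FGFR1 at 12.7. Neighbours whose libraries did not overlap in that order were KIT and IGF1R, TYRO3 and ERBB2, and ERBB2 and AXL. KIT did overlap INSR, whose highest WT library, at 263.1, lay above the lowest of KIT, at 237.5. The others in the order were not separated beyond their spread. In the libraries labelled ACK KO, IGF1R was first at 209 per kilobase, then INSR at 189.5, AXL at 186, TYRO3 at 147, ERBB2 at 105, KIT at 46.3, MERTK at 38.97, FGFR1 at 38.1 and ERBB3 at 33.4. There the separated neighbours were AXL and TYRO3, and ERBB2 and KIT. By the group means, KIT had thus moved from the first place to the sixth and AXL from the sixth to the third. With the median coding transcript as the length, KIT had the highest mean in WT, at 357 per kilobase, and the lowest under the knockout label, at 49.6, and AXL had the highest there, at 299. These places were not separated from their neighbours: KIT overlapped INSR in WT, and under the knockout label AXL overlapped INSR and KIT overlapped MERTK.

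Genes near AXL on chromosome 19 did not share its difference to the same degree. The 20 nearest tested genes, within 0.70 Mb, had a median log2 difference of 0.02 and a range of -0.76 to 1.25. By limma 0 of these 20 passed the threshold (against 10.3% of all genes tested), and 5 passed with the replicate number as a block (against 39.7% of all genes). At an unadjusted p under 0.05 the count was 3, with no share of all genes to set beside it. The nearest tested coding genes on the left were CYP2S1, a cytochrome P450 enzyme ending 11.7 kb before AXL, and CYP2F1, another. CYP2S1 had means of 112 ± 47.0 in WT and 259 ± 102 in the KO-labelled libraries (SD, n = 3), a log2 difference of 1.20 (limma adjusted p = 0.121). With the replicate number as a block it passed the threshold (limma adjusted p = 0.00228). CYP2F1 differed by 1.25 (limma adjusted p = 0.578). On the right, HNRNPUL1, an RNA-binding protein gene that begins 0.73 kb after AXL, differed by -0.03 (limma adjusted p = 0.911), and TGFB1, a growth factor gene, by 0.23 (limma adjusted p = 0.592).

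Genes near KIT did not share the size of its difference either, but most of them were lower. The 20 tested genes nearest to KIT, spread over 3.80 Mb, had a median difference of -0.12 and a range of -0.51 to 1.68. The difference was above 0 in 4 of these 20, in 10 of 20 around AXL and in 48.4% of all genes tested. Among the 20 nearest to KIT, 1 passed the threshold (against 10.3% of all genes tested) and 5 passed with the block (against 39.7% of all genes). LNX1, a ubiquitin ligase gene 957 kb away, rose from 30.2 ± 5.24 to 105 ± 49.8 (SD, n = 3; log2 difference 1.68, limma adjusted p = 0.0385), opposite to KIT. CHIC2, SRD5A3 and TMEM165, the other nearest tested coding genes, lie 593, 605 and 655 kb away, and coding genes that were not tested are passed over. They differed by 0.06, -0.23 and -0.25 (limma adjusted p = 0.909, 0.549 and 0.375). With the replicate number as a block TMEM165 passed the threshold as lower (limma adjusted p = 0.0145). Around FGFR1 the median of the 20 nearest genes was -0.04, and the medians of whole chromosomes 19, 4 and 8 were -0.05, -0.09 and -0.08. For the other genes the neighbour medians were -0.18 for TYRO3, 0.09 for MERTK, -0.09 for ERBB2, 0.12 for ERBB3, -0.07 for INSR and 0.35 for IGF1R. The IGF1R difference of 0.17 was thus below the median of the genes around it.

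**Figure D4:**
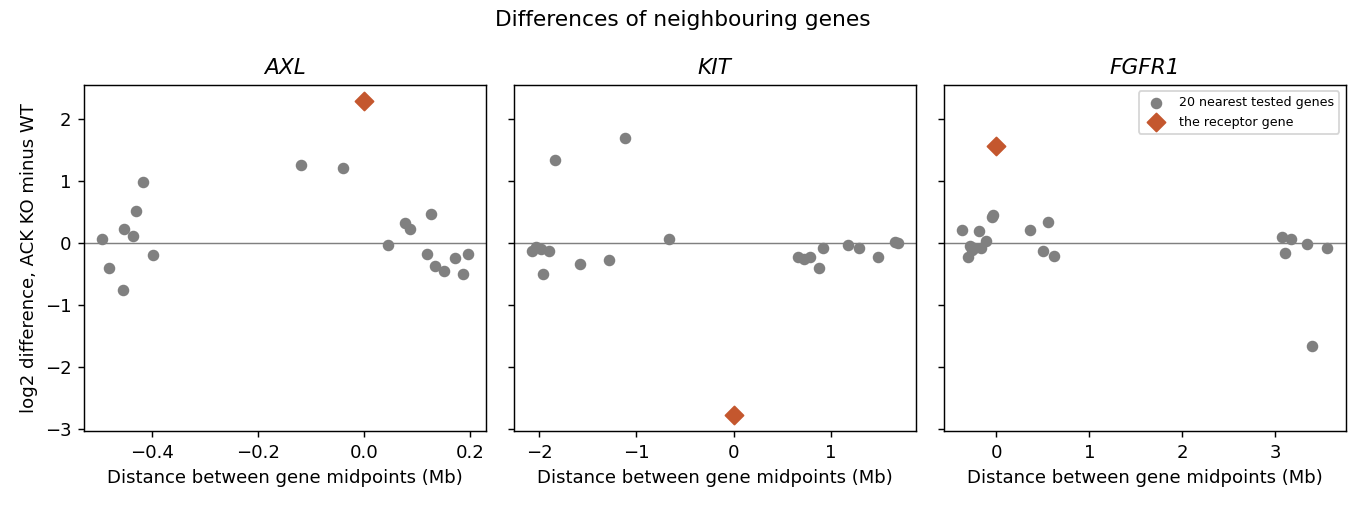
Log2 difference of AXL, KIT and FGFR1 (orange diamonds) and of the 20 nearest tested genes (grey), against the distance between gene midpoints in Mb. AXL stands at 2.29 above neighbours that reach 1.25, and KIT at -2.78 below neighbours that reach -0.51.

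Profiles most like that of AXL over the 6 libraries were sought among 12476 genes by the Euclidean distance between centred log2 values. The nearest were TSPAN9, a tetraspanin, at 0.186, CA13, a carbonic anhydrase, at 0.234, GSTA4, a glutathione transferase, at 0.276, NHLRC1, a ubiquitin ligase, at 0.321 and FAM174B at 0.365. TSPAN9 had means of 55.8 ± 3.52 in WT and 272 ± 48.7 in the KO-labelled libraries (SD, n = 3). The genes nearest to KIT lay farther off, from ENSG00000250284, a long non-coding RNA, at 0.676, FAM111A at 0.762, FMNL2, a formin, at 0.773 and VAV3, an exchange factor, at 0.778, to the pseudogene MSL3P1 at 0.809. All 6 libraries are shared by every such comparison, and the distances are a description.

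Ligands of the receptors moved in both directions. This list and the lists below were chosen with earlier results of these data known. Their shares beside those of all genes are thus a description, and nothing is read from an excess. Of 30 ligand genes, 14 were in the table and 11 were tested. Of these 2 rose and 2 fell (36.4%, against 10.3% of all genes tested), and with the replicate number as a block 4 rose and 4 fell (against 39.7% of all genes). The median difference of the 11 was 0.53. GAS6, the ligand of all 3 TAM receptors, read 2373, 681 and 805 in WT and 203, 72.7 and 111 in the KO-labelled libraries, so its groups did not overlap. GAS6 fell by 3.20 on the log2 scale, or 9.18-fold (limma adjusted p = 0.0153). It was thus lower where AXL, its receptor, was higher. The GAS6 call was lost without WT replicate 3 (adjusted p = 0.051 by limma), without knockout replicate 2 (0.0572) or without knockout replicate 3 (0.0708). PROS1, the other TAM ligand, had means of 3300 ± 562.2 and 4781 ± 896 (SD, n = 3) and a difference of 0.53 that passed the threshold with the block (limma adjusted p = 8.29e-04) but not without it (0.138).

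KITLG, the ligand of KIT, was listed at 19.5, 37.0 and 61.3 in WT and at 0, 0 and 1.23 in the KO-labelled libraries. KITLG fell, with a fitted log2 difference of -4.80 (limma adjusted p = 0.00391) whose size depends on the pseudocount because 2 values are 0. The ligand and the receptor were thus both lower. FGF2, which binds FGFR1, rose from 1559 ± 28.0 to 2738 ± 145 (SD, n = 3; log2 difference 0.81, limma adjusted p = 0.00682), and NUDT6 overlaps it on the other strand. FGF5, another ligand of FGFR1, rose from a low level, 12.1 ± 2.38 to 53.2 ± 21.1 (log2 difference 2.00, limma adjusted p = 0.0216). The FGF5 call was lost without WT replicate 2 or 3 or knockout replicate 2 or 3 (adjusted p = 0.0752, 0.0691, 0.0571 and 0.0901 by limma). IGF1, the ligand of IGF1R, had means of 8355 ± 6037 in WT and 12093 ± 1366 under the knockout label (log2 difference 0.76, limma adjusted p = 0.375). Without WT replicate 1 the IGF1 difference was 1.31 and passed the threshold (limma adjusted p = 0.00655).

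Among 48 further receptor tyrosine kinases, 27 were in the table and 23 were tested, with a median difference of 0.28. Of these 4 rose and 1 fell (21.7%, against 10.3% of all genes tested), and 10 rose and 3 fell with the replicate number as a block (39.7% of all genes were called). MET, the hepatocyte growth factor receptor, read 105.5, 14.3 and 22.3 in WT and 1373, 449 and 695 in the KO-labelled libraries. All 3 KO-labelled values of MET lay above WT, and MET rose by 4.49 on the log2 scale (limma adjusted p = 0.0137). The ephrin receptor EPHB6 rose from 178 ± 86.2 to 1049 ± 666 (SD, n = 3; log2 difference 2.46, limma adjusted p = 0.0365), and EPHB4 from 2420.2 ± 132 to 3958 ± 279 (0.71, limma adjusted p = 0.0129). LMTK2 rose by 0.50 (limma adjusted p = 0.0403), and FGFR4, a sister of FGFR1, fell from 1282 ± 207 to 598 ± 147 (-1.12, limma adjusted p = 0.0302), opposite to FGFR1.

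All 5 lie on chromosomes 5 or 7, whose tested genes had a median difference away from 0. The median difference was 0.39 over 834 tested genes of chromosome 7 and -0.62 over 693 of chromosome 5. The 20 genes nearest to LMTK2 had a median of 0.58, above its own value, and those nearest to EPHB4, EPHB6 and MET had medians of 0.32, 0.68 and 0.29. The median around FGFR4 was -0.74. Outside chromosomes 5, 7 and 20, the last with a median of 0.54, limma called 0 of 17 tested receptor kinases, against 10.3% of all genes. With the block 7 were called, a share close to the 39.7% of all genes. At an unadjusted p under 0.05 the count was 4, with no share of all genes to set beside it. None of the 9 receptor genes described above lies on those chromosomes. Gene copy number was not measured here, and its part was not tested. The 5 calls did not all hold with 1 library fewer, although the fitted differences stayed between 3.92 and 5.32 for MET, 1.97 and 2.95 for EPHB6, 0.66 and 0.77 for EPHB4, 0.44 and 0.54 for LMTK2 and -1.25 and -0.90 for FGFR4. The call of MET was lost without WT replicate 3 (adjusted p = 0.0658 by limma) or knockout replicate 3 (0.0618), EPHB4 without WT replicate 3 (0.0709) or knockout replicate 2 or 3 (0.0624 and 0.0522), and FGFR4 without WT replicate 2 or 3 (0.111 and 0.123) or knockout replicate 2 or 3 (0.0588 and 0.0864). EPHB6 was lost without any 1 library other than knockout replicate 1, with an adjusted p of up to 0.115 by limma, and LMTK2 without any of the 6, with up to 0.172.

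Adaptors and effectors that dock on these receptors were mostly lower where they passed the test. Of 37 such genes 33 were tested, 2 rose and 8 fell (30.3%, against 10.3% of all genes), 4 rose and 12 fell with the block (against 39.7% called of all genes), and the median was -0.09. VAV1 and VAV3 are exchange factors that dock on activated receptors. VAV1 fell from 965 ± 98.8 to 91.1 ± 38.7 (SD, n = 3; log2 difference -3.47, limma adjusted p = 0.00127). VAV3 fell from 129 ± 19.2 to 13.7 ± 4.42 (-3.18, limma adjusted p = 0.00211), and it is also among the genes whose profile is most like that of KIT. SOS1, the exchange factor that activates RAS, fell from 12435 ± 1692 to 5128 ± 744 (-1.28, limma adjusted p = 0.00404). DOK2, an adaptor that dampens signalling in blood cells, fell from 66.2 ± 14.9 to 3.41 ± 3.23 (-4.19, limma adjusted p = 0.0078). Its low values make the size depend on the pseudocount, with -3.13 at 5 and -4.46 at 0.5. These 4 calls held without any single library. The most abundant members, CRKL, an adaptor and major substrate of BCR::ABL1, and PTPN11, the phosphatase SHP2, differed by -0.05 and -0.17 (limma adjusted p = 0.924 and 0.635, and 0.532 and 0.0496 with the block). Of the 10 called, 2 higher and 1 lower lie on chromosomes 5, 7 or 20.

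Of 35 genes for negative regulation, shedding and trafficking of receptor tyrosine kinases, 31 were tested, 2 rose and 4 fell (19.4%, against 10.3% of all genes), and 5 rose and 12 fell with the block (against 39.7% called of all genes). The median was -0.10. LRIG3, a membrane protein whose family restrains receptor tyrosine kinases, fell from 234 ± 52.4 to 14.3 ± 12.4 (SD, n = 3; log2 difference -4.23, limma adjusted p = 0.00682). CBLB, a ubiquitin ligase that tags activated receptors for degradation, fell from 569 ± 88.2 to 71.7 ± 39.4 (-3.16, limma adjusted p = 0.00942). Both calls held without any single library. PTPN6, the phosphatase SHP1 that acts on KIT, fell from 98.5 ± 12.0 to 9.11 ± 5.89 (-3.53, limma adjusted p = 0.0108, and 0.0574 without WT replicate 3). The PTPN6 difference was -2.97 with a pseudocount of 5 and -3.63 with 0.5. PTPRJ, a receptor phosphatase, fell by 1.25 on the log2 scale (limma adjusted p = 0.0266), a call lost without WT replicate 2 or 3 or knockout replicate 2 or 3 (0.0733, 0.109, 0.0991 and 0.0922). CD2AP and CDC37, the most abundant members, differed by -0.15 and 0.02 (limma adjusted p = 0.533 and 0.978).

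Of 12 transcription factors known to act on KIT in blood and mast cells, all 12 were tested, with a median of -0.31. By limma 0 rose and 2 fell (16.7%, against 10.3% of all genes). At an unadjusted p under 0.05, 0 were higher and 6 lower, with no share of all genes to set beside them. With the block 1 rose and 7 fell, where 39.7% of all genes were called. LDB1, the scaffold of the GATA1 and TAL1 complex, fell from 6459 ± 351 to 4497 ± 218 (SD, n = 3; log2 difference -0.52, limma adjusted p = 0.0302). LYL1, a relative of TAL1, fell by 0.69 on the log2 scale (limma adjusted p = 0.038). The LDB1 and LYL1 calls were each lost without any 1 library other than WT replicate 1, with an adjusted p of up to 0.15 and 0.159 by limma, and the list had no call after rescaling the libraries to one sum. MYB and TCF3, the most abundant members, differed by -0.38 and -0.23, and passed the threshold with the block (limma adjusted p = 0.00616 and 0.0318) but not without it (0.17 and 0.65). Each of these differences was smaller than that of KIT.

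YAP, TEAD and AP-1 factors and their common targets, a group that includes factors known to act on AXL, had 12 tested genes of 17. YAP1 itself, with means of 7.40 in WT and 2.95 under the knockout label, did not pass the filter on low values. Nor did AMOTL2, with means of 6.10 and 22.7. Of the 12 tested, 0 rose and 1 fell (8.33%, below the 10.3% of all genes), and 2 rose and 1 fell with the block (against 39.7% called of all genes). At an unadjusted p under 0.05, 1 was higher and 2 were lower, with no share of all genes to set beside them. TEAD3 fell from 589 ± 23.5 to 255 ± 40 (SD, n = 3; log2 difference -1.22, limma adjusted p = 0.00893), a call lost without WT replicate 3 or knockout replicate 3 (0.0573 and 0.055). JUND and TEAD1, the most abundant members, differed by 0.29 and -0.16 (limma adjusted p = 0.296 and 0.727).

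**Figure D5:**
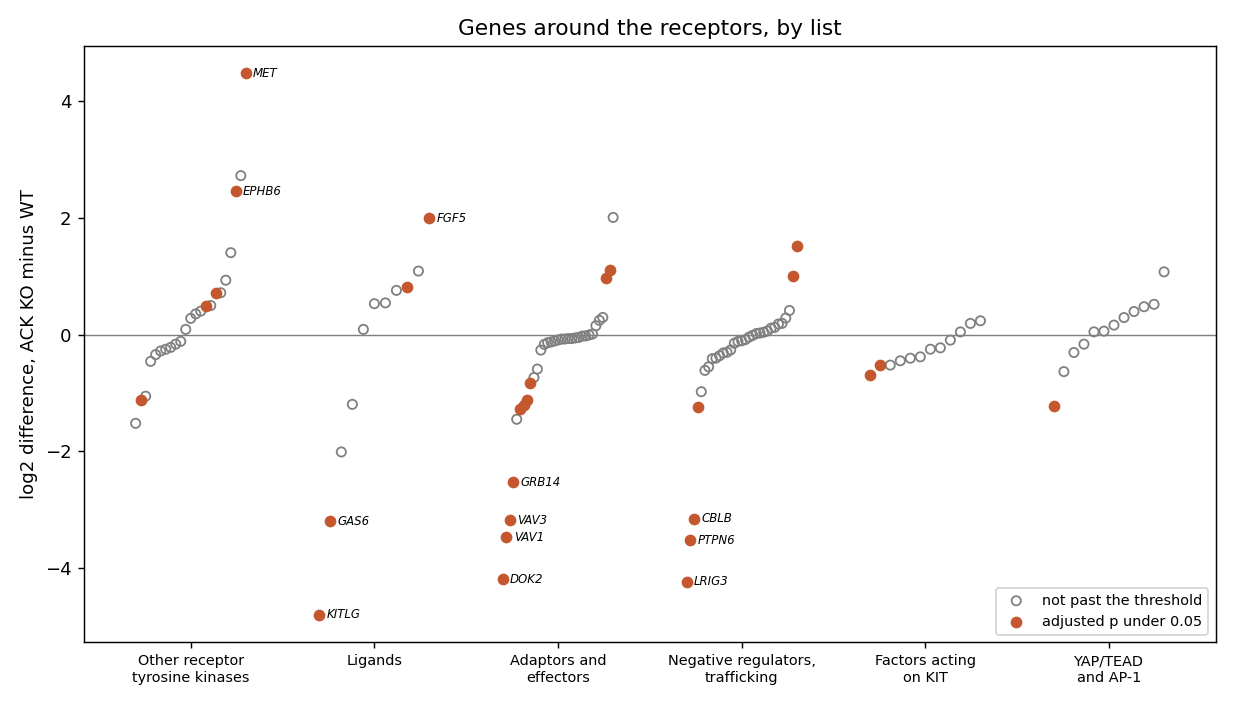
Log2 difference (ACK KO minus WT) of every tested gene in 6 lists around the receptors, sorted within each list, with filled orange points for an adjusted p under 0.05 by limma and open points for the rest. Among ligands KITLG and GAS6 lie at -4.80 and -3.20, and among further receptor kinases MET lies at 4.49.

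Some markers of other cell types differed between the genotypes and others overlapped. AXL and MET are abundant in epithelial and mesenchymal cells. The summed value of 6 of 7 epithelial markers was 15131 to 21381 in WT and 24729.5 to 32747 in the KO-labelled libraries. KRT19, a keratin, read 358, 163 and 194 in WT and 3069.9, 2207 and 2419.5 under the knockout label. KRT8, a more abundant keratin, rose from a mean of 5179 to 12066 (limma adjusted p = 0.0127). KRT18 had means of 8685 and 10034 (limma adjusted p = 0.674, and 0.0468 with the block). EPCAM, an epithelial adhesion protein, was abundant in all 6 libraries with means of 4791 and 4923. CDH1, the defining epithelial cadherin, was at 13.0 or lower in every library, with means of 6.13 in WT and 2.61 under the knockout label. CLDN4 read 21.1, 4.39 and 27.3 in WT and 5.84, 6.26 and 7.57 under the knockout label. Neither CDH1 nor CLDN4 passed the filter on low values, and KRT5 has no row. For 3 of 5 fibroblast markers the sum was 14.2 to 35.3 in WT and 88.2 to 217 under the knockout label, most of the latter being COL1A1, a collagen chain, while COL1A2 and LUM have no row and DCN was at 11.6 or lower. For 2 of 5 endothelial markers it was 98.0 to 200.4 and 14.02 to 28.8, with no row for CDH5, VWF or CLDN5. PECAM1, an adhesion protein also found on blood cells, fell from a mean of 129 to 9.45 (limma adjusted p = 0.00431), while ESAM had means of 22.0 and 13.1 (limma adjusted p = 0.642). The sums of 4 of 6 lymphoid markers overlapped, at 509 to 1806 in WT and 1002 to 1778 under the knockout label, as did the macrophage sums given above. Their part in the receptor values was not tested.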

How the data were processed

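The submitters' processing notes name GRCh38, R 3.6.1, DESeq2 1.26.0, Salmon 1.1.0, STAR 2.7.2b, SAMtools and FastQC 0.11.7, with no role or order. The sources used here state neither the annotation release nor how reads were counted. What the authors deposited is a signal per gene, normalised counts that are neither whole reads nor log values; whole reads were not recovered, so read depth is unknown and precision rests on the spread between libraries. Symbols were found for 19392 of 19498 identifiers and GENCODE 29 positions for 19112.

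Genes reaching 10 in 3 or more of the 6 libraries entered limma 3.58.1 (R 4.3.3) as log2(value + 1) (trend, all 6 libraries, no covariate, two-sided), with Benjamini-Hochberg adjustment over all 16658 and a threshold of 0.05. The script was tested on simulated data. A p-value here reflects the spread of these libraries alone. Replicate numbers were treated as pairs in an alternative with the number as a block. Deviations from the group means correlated at 0.699, 0.521 and 0.342 within numbers 1, 2 and 3. Across numbers, WT replicate 2 and knockout replicate 3 correlated at 0.281, and WT replicate 3 and knockout replicate 2 at 0.257. Number 1 correlated negatively with the others, so the pairing of 2 and 3 rests on a smaller margin. The labels do not say what a number marks.

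The members and lists were chosen with earlier results of these data known. Named genes are the members, TNK2, up to 4 genes of smallest p among those called and the 2 of highest mean in each list, the 5 profiles most like AXL and KIT (mean of at least 100 in the higher group), and the 2 nearest tested coding genes on each side of each. LETM2, PGAP3, MIEN1, YAP1, AMOTL2 and the marker genes named were chosen after their values were seen. Alternatives were a pseudocount of 0.5 or 5, no filter, rescaling to a common median ratio or sum, the block, and leaving out each library or both replicate 1 libraries. No protein sequences were used here.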

Additional observations from a re-analysis of the deposited data

How the results depend on the processing

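The differences of AXL and KIT ranged from 2.20 to 2.36 for AXL and from -2.98 to -2.45 for KIT with 1 library left out. Their direction was the same under every alternative run. The groups of both genes do not overlap, so a library left out, the block or another pseudocount could not have turned it. Counts of called genes varied more. A block for the replicate number gave 6612 genes in place of 1721, with 13 further receptor kinases, 8 ligands, 16 adaptors, 17 negative regulators, 8 factors acting on KIT and 3 YAP, TEAD and AP-1 genes. Each replicate number is present in both genotypes, so the block cannot change a fitted difference, only its error. Without both replicate 1 libraries the counts were 4731 genes, 9 receptor kinases, 8 ligands, 12 negative regulators, 5 factors acting on KIT and 3 YAP, TEAD and AP-1 genes. Leaving out 1 library gave 726 to 2183 genes, 0 to 5 receptor kinases, 2 to 5 ligands, 4 to 10 adaptors, 2 to 8 negative regulators, 0 to 2 factors acting on KIT and 0 to 2 YAP, TEAD and AP-1 genes, with fewer samples in the fit. At an unadjusted p under 0.05 the counts of 0 became 6 or 7 receptor kinases, 4 to 6 factors acting on KIT and 1 YAP, TEAD or AP-1 gene. Rescaling to a common median ratio left 1 factor acting on KIT called and rescaling to a common sum 0 by limma (3 at an unadjusted p under 0.05); the cause of these changes was not tested. The common sum moved the median of all genes from -0.02 to 0.08, with 1056 called higher and 650 lower. Dividing by the median coding transcript, an alternative chosen after seeing the data, moved the WT level per kilobase of AXL, TYRO3, ERBB2, ERBB3 and FGFR1 by more than 1 SD, for AXL from 37.9 to 60.98. No read depth was known, so low values such as those of KITLG carry no floor.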
